A study of Mus musculus with 13 samples.

Results

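The genes described here are the 40 genes of glycolysis and glycogen metabolism, chosen by name for their place in glucose uptake, glycolysis, lactate handling or glycogen turnover by a rule that uses no measured value. They were chosen with earlier results of these data known, so the member counts below are not those of a blind choice. All 40 were found among the 17924 genes of the deposited tables, and all 40 passed the filter on low counts and stood among the 17069 genes tested. The libraries came from RNA of whole muscles of mice labelled *mdm* (muscular dystrophy with myositis, a deletion in the titin gene Ttn, bred on B6C3Fe a/a-Ttn mdm/J), from the extensor digitorum longus (EDL) in 5 libraries, the psoas in 5 and the soleus in 3. EDL and psoas are fast muscles of the hindlimb and lower back, and soleus is a slow muscle of the calf. Every library carries the *mdm* genotype and none had a treatment, so the comparisons are between muscles of *mdm* mice, and wild-type libraries are not analysed here. The muscles were taken from mice killed for other experiments. EDL mice were 38 days old, except replicate 3 at 42 days. Psoas mice were 38 days old, except replicate 1 at 29 days and replicate 3 at 42 days. Soleus mice were 33, 36 and 38 days old for replicates 1, 2 and 3. The labels give the sex as male for replicate 2 of EDL and of psoas and for the first 2 soleus libraries, as female for replicate 3 of EDL and of psoas, and not at all for the other 7 libraries. A label code, whose meaning the labels do not state, is T4 for the 4 libraries given as male, T5 for the 2 given as female, T1 for EDL replicate 1, T3 for psoas replicate 1, and T6 for the remaining 2 EDL and 2 psoas libraries and soleus replicate 3.

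Glycolysis splits glucose into pyruvate through a chain of cytosolic enzymes, most of which exist in a form abundant in skeletal muscle and in others found in many tissues. Fast fibres rely on it during brief, strong contraction, draw much of their glucose from glycogen stored in the fibre, and export the lactate they form. Glycogen is broken down by phosphorylase, which phosphorylase kinase switches on, and it is built by glycogen synthase, which a protein phosphatase held at the glycogen particle by targeting subunits switches on.

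Total counts ran from 9114176 in soleus replicate 3 to 48835209 in EDL replicate 1. By the RNA integrity numbers that the study reports, no psoas library exceeded any EDL library, and the part of RNA integrity in the differences was not tested. The 40 members together took 1.85 to 2.94% in EDL, 0.525 to 1.46% in psoas and 0.820 to 0.862% in soleus of the counts of a library, so that no psoas or soleus library reached the lowest EDL library. Per length of exon, as FPKM computed from normalized counts, exon length and library size, Aldoa was the most abundant member in each of the 3 muscles, with 2698 ± 922 (SD, n = 5) in EDL, 546 ± 269 (SD, n = 5) in psoas and 396 ± 69.8 (SD, n = 3) in soleus. Eno3 and Gapdh filled the next places in each muscle, and Aldoc was the least abundant member in all 3. The place in this order moved most for Ldhb, from 22 of 40 in EDL to 14 in psoas and 9 in soleus, for Slc16a3, from 23 to 30 and 35, and for Phkg1, from 26 to 32 and 38. In RNA of whole muscle, fewer fibres of a kind and less RNA per fibre cannot be told apart.

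In psoas, 17 members from glucose uptake to glycogen turnover were lower than in EDL, by 2.26-fold for the pyruvate kinase Pkm up to 8.14-fold for Phkg1. Phkg1 is the catalytic subunit of phosphorylase kinase in muscle. Next to it, Fbp2, the muscle fructose bisphosphatase, was 6.95-fold lower, Slc16a3, the lactate exporter MCT4, 6.63-fold, and Ppp1r3c, which ties protein phosphatase 1 to glycogen, 6.27-fold. In all, 17 of the 40 were lower and 1, the hexokinase Hk1, was higher in psoas with an adjusted p below 0.01 and more than 2-fold change, called differentially expressed below (quasi-likelihood test of edgeR, adjusted by Benjamini-Hochberg over all genes tested). Over all genes tested the same rule called 4.93%, with 2.5% lower and 2.43% higher. At an adjusted p under 0.05 with no limit on the fold, called the wider rule below, 24 members were lower and 3 higher, against 18.1% of all genes in either direction and 9.06% in each. The 5 psoas libraries all lay below the 5 EDL libraries for 19 members and above them for 2, against 6.56% and 6.48% of all genes. The median log2 fold change of the members was -1.29, beside 0.02 over all genes tested. Within the label codes shared by both muscles, all 18 called members kept their direction, with a median log2 difference of -2.64 in T4 and -2.54 in T5 (1 library of each muscle in each) and -0.96 in T6 (2 of each). For all of them but Hk2, the psoas libraries lay wholly on 1 side of the EDL libraries. The kept direction followed from that separation and is no separate evidence. Scaling to the total count alone, which moves the median of all genes to 0.54, gave 4 higher and 10 lower members. Scaling to 10 structural genes of the fibre, chosen after the data were seen, gave 0 higher and 7 lower. These 10 include Ttn, the mutated gene. The study reports Ttn lower in *mdm* than in wild-type psoas and soleus, with no significant difference in EDL. Of all 17069 genes these scalings called 2282 and 155, against 841 in the reported fit, so the member counts cannot be read against the same share. Leaving out 1 library at a time gave 8 to 20 called members, with 8 without EDL replicate 3, 10 without psoas replicate 2, and 11 without each of EDL replicates 2 and 5 and soleus replicate 1. With the replicate number as a block, 3 members were higher and 19 lower. DESeq2 gave 2 higher and 24 lower members and called 1586 of all genes.

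**Figure D1:**
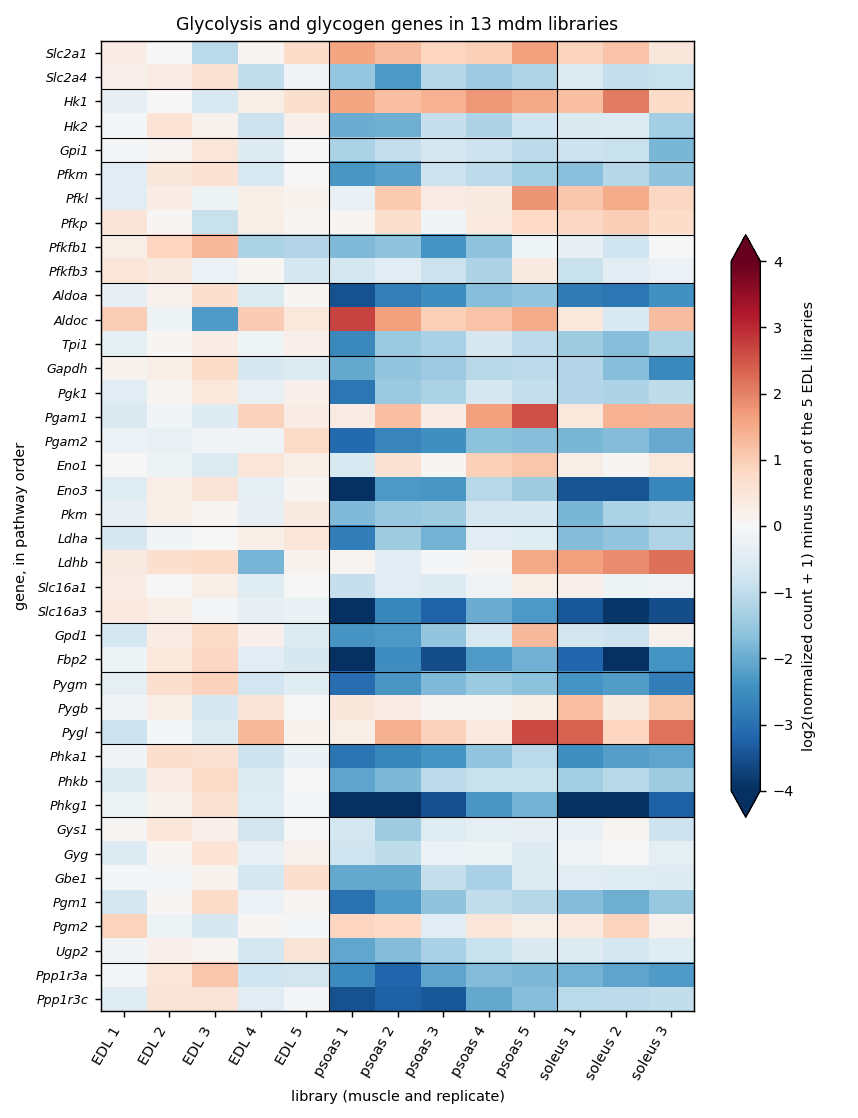
Each cell is the log2(normalized count + 1) of 1 gene in 1 of the 13 *mdm* libraries minus the mean of the 5 EDL libraries, on a colour scale that ends at -4 and 4, with genes in pathway order and lines between steps and between muscles. Genes such as Phkg1, Fbp2 and Slc16a3 are dark blue in the psoas and soleus columns, while Hk1 is red in all 5 psoas libraries.

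In the 3 soleus libraries Aldoa, Eno3, Slc16a3, Fbp2, Pygm and Phkg1 were lower than in EDL, by 6.08-fold for Pygm up to 15.8-fold for Phkg1, and 0 members were higher. That is 6 of 40 members, against 0.978% of all genes in either direction, 0.445% lower and 0.533% higher. By the wider rule 14 members were lower and 1, Hk1, was higher, against 3.43% of all genes, 1.66% lower and 1.76% higher. The 3 soleus libraries all lay below the 5 EDL libraries for 19 members and above them for 4, against 5.72% and 5.33% of all genes. The median log2 fold change of the members was -0.86, beside -0.03 over all genes. The 6 called members kept their direction within T4, with a median log2 difference of -3.83 (1 EDL and 2 soleus libraries), and within T6, with -2.31 (2 and 1). All 6 had every soleus library below every EDL library, so this direction too followed from that separation and is no separate evidence. The comparisons of psoas and of soleus with EDL use the same 5 EDL libraries, so their values are given side by side and not compared with each other. Total count scaling, which moves the median of all genes to 0.33, gave 2 higher and 7 lower members, scaling to the 10 structural genes 0 and 1, and DESeq2 1 and 17, while these settings called 305, 40 and 633 of all genes, against 167. Leaving out 1 library at a time gave 0 to 8 called members, with 0 without soleus replicate 1 or 2, 1 without soleus replicate 3 or EDL replicate 2, 3 or 5, 2 without EDL replicate 1 and 3 without psoas replicate 2. The 15 members of the wider rule became 7, 5 and 8 without soleus replicates 1, 2 and 3.

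**Figure D2:**
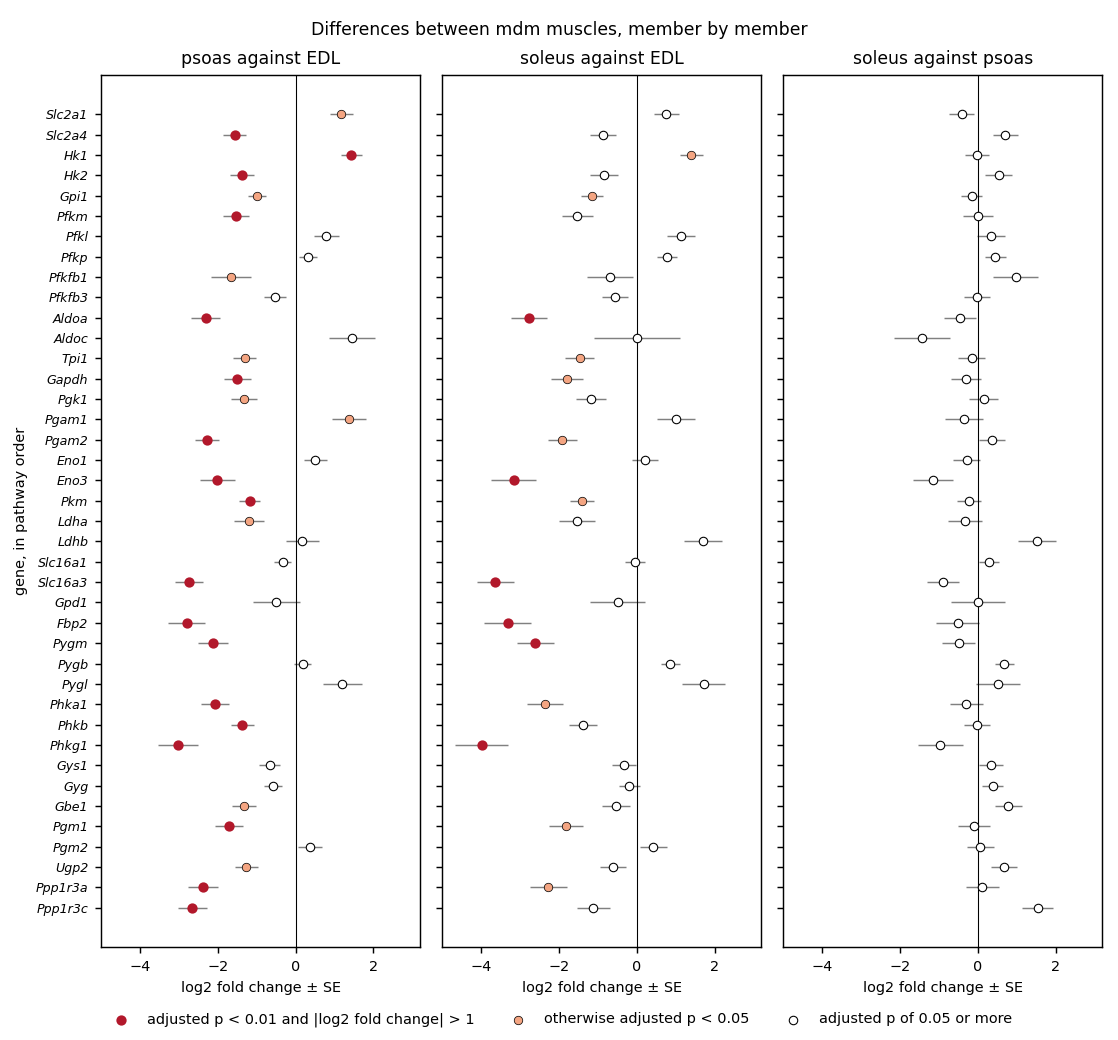
Each point is the log2 fold change of 1 member with its SE, from edgeR's quasi-likelihood fit, for psoas against EDL, soleus against EDL and soleus against psoas. Filled red points were differentially expressed (18, 6 and 0 members) and pale filled points the wider rule alone.

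The starts of 4 of the members lower in psoas are shown, the 4 with the lowest log2 fold changes among those called lower that have 1 start site and no annotated exon in the window. Each is the 250 bases before the start site, 5′ to 3′ on the strand of the gene, taken from RefSeq (GRCm38.p6). Capitals mark CAGCTG, 1 form of the E-box bound by myogenic regulatory factors such as MyoD, or a pattern for MEF2, a factor that acts with them. That pattern is CTA and TAG with any 4 bases between. It is looser than the MEF2 site, whose 4 middle bases are A or T.
Phkg1 (chr5:129879089-129879338, minus strand): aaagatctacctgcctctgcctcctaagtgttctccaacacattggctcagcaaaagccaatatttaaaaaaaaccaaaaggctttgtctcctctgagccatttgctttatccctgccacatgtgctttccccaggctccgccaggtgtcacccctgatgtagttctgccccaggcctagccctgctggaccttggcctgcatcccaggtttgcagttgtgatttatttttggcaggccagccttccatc
Ppp1r3a (chr6:14755275-14755524, minus strand): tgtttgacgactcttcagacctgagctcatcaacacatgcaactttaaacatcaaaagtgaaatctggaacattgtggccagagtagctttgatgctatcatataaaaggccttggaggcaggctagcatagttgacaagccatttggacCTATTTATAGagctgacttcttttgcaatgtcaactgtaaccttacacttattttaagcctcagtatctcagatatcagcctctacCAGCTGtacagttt
Pgam2 (chr11:5803797-5804046, minus strand): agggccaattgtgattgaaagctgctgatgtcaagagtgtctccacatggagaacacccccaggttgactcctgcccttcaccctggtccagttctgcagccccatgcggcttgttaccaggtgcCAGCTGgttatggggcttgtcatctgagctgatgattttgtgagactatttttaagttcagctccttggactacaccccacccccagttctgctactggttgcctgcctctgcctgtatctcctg
Phka1 (chrX:102644247-102644496, minus strand): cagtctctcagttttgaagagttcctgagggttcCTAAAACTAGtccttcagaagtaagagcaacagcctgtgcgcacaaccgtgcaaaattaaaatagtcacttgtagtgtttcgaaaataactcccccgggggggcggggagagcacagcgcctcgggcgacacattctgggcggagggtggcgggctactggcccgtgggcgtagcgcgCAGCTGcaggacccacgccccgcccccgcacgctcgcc
The window of Ppp1r3a holds a match to the MEF2 pattern that begins 100 bases before the start and CAGCTG 14 bases before it. That of Phka1 holds a match to the pattern 216 bases before the start, with a C among its 4 middle bases, and CAGCTG 38 bases before it. The window of Pgam2 holds CAGCTG 125 bases before the start, and that of Phkg1 holds neither pattern. Other forms of the E-box were not marked or counted. The start of Phkg1 in RefSeq lies inside the longer gene of the GENCODE annotation (129863421 to 129898549), so its window is not upstream of every annotated transcript. Of the 40 members, 38 had at least 1 such window and Slc2a4 and Gpd1 had none. A gene with several start sites was counted once, as holding a motif if any of its windows held it. CAGCTG, which reads the same on both strands, was in 11 of these 38 and in 7 of the 16 members called lower in psoas, against 14.7% of all 27025 genes with such a window. The MEF2 pattern, also the same on both strands, was in 3 of 38 and 2 of 16, against 3.70%. TCAGGTT, a MEF3 site, was found on either strand in 1 of 38 and 0 of 16, against 4.07%. ACGTG, the core of the site bound by hypoxia-inducible factor and by other factors, was found on either strand in 19 of 38 and 9 of 16, against 18.5%. A match is a run of letters in a window and not a measured binding site. The base composition of the windows and the number of start sites per gene were not compared.

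Glucose enters the fibre through GLUT4, encoded by Slc2a4 (ENSMUSG00000018566, chromosome 11, 69942539 to 69948188, all such positions on GRCm38), the transporter that insulin and contraction bring to the surface. Its normalized counts were 2822, 3051, 3683, 1239 and 2187 in EDL replicates 1 to 5, 829, 500.4, 1106, 898 and 1058 in psoas replicates 1 to 5 and 1679, 1291 and 1303 in soleus replicates 1 to 3. All 5 psoas libraries lay below all 5 EDL libraries, and the soleus libraries lay above the psoas libraries and overlapped EDL. Slc2a4 was 2.97-fold lower in psoas (log2 fold change -1.57, SE 0.29, adjusted p = 0.00360), a call lost without EDL replicate 3 (adjusted p = 0.0111), while soleus did not pass against EDL (log2 fold change -0.86, adjusted p = 0.206). Slc2a1, which encodes the broadly expressed transporter GLUT1, had 31.9 to 114 in EDL, 124 to 217 in psoas and 92.8 to 153 in soleus, with every psoas library above every EDL library. It passed the wider rule in psoas (log2 fold change 1.18, adjusted p = 0.0131) and was called with the replicate block (adjusted p = 0.00428), and it did not pass in soleus (log2 fold change 0.76, adjusted p = 0.268).

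Hexokinase traps glucose as glucose 6-phosphate, with Hk2 as the form typical of muscle. Hk2 (ENSMUSG00000000628, chromosome 6, 82725025 to 82774454) had normalized counts of 3908, 6125, 4728, 2291 and 4796 in EDL replicates 1 to 5, 1041, 1077, 2173, 1766 and 2368 in psoas replicates 1 to 5 and 2796, 2850.2 and 1618 in soleus replicates 1 to 3. EDL replicate 4, the lowest of its muscle, fell within the psoas range, and the other 4 EDL libraries lay above all psoas libraries. In psoas Hk2 was 2.60-fold lower (log2 fold change -1.38, SE 0.31, adjusted p = 0.00936). That call was lost in 10 of 13 fits, all but those without EDL replicate 4, psoas replicate 5 or soleus replicate 3 (adjusted p up to 0.0267) and with the replicate block (adjusted p = 0.0113). Hk1 (ENSMUSG00000037012, chromosome 10, 62268855 to 62379908) is the hexokinase of most other cells. Libraries had normalized counts of 109.9, 140.4, 91.6, 168 and 218 in EDL replicates 1 to 5, 416, 319, 362, 464 and 396 in psoas replicates 1 to 5 and 324, 588 and 234 in soleus replicates 1 to 3. Every psoas and every soleus library lay above every EDL library. Hk1 was 2.69-fold higher in psoas (log2 fold change 1.43, SE 0.27, adjusted p = 0.00417), a call lost without EDL replicate 3 (adjusted p = 0.0128), and it passed the wider rule in soleus (log2 fold change 1.41, adjusted p = 0.0182). Gpi1, which turns glucose 6-phosphate into fructose 6-phosphate, had 4375 to 8719.9 in EDL, 2588 to 3773 in psoas and 1754 to 3481 in soleus. It passed the wider rule with lower values in psoas (log2 fold change -0.99, adjusted p = 0.0119) and in soleus (log2 fold change -1.15, adjusted p = 0.0376).

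Phosphofructokinase commits sugar to glycolysis, and Pfkm (ENSMUSG00000033065, chromosome 15, 98092589 to 98132451) encodes its muscle subunit. Normalized counts of Pfkm were 17819, 32928, 35959, 15771 and 23884 in EDL replicates 1 to 5, 4737, 5362, 13097, 11671 and 9135 in psoas replicates 1 to 5 and 7517, 10987 and 7790.4 in soleus replicates 1 to 3. Neither the psoas nor the soleus libraries reached the lowest EDL library. Pfkm was 2.88-fold lower in psoas (log2 fold change -1.53, SE 0.34, adjusted p = 0.00871) and did not pass in soleus (log2 fold change -1.53, SE 0.40, adjusted p = 0.0525). The psoas call was lost in 10 of 13 fits, all but those without EDL replicate 1, EDL replicate 4 or psoas replicate 3 (adjusted p up to 0.0254). Pfkl and Pfkp encode the liver and platelet subunits and did not pass in any comparison. Pfkl had 132 to 224 in EDL, 149.5 to 623 in psoas and 322 to 507 in soleus, and Pfkp had 157 to 416 in EDL, 272 to 508 in psoas and 488 to 577 in soleus. Pfkfb1 and Pfkfb3 set the level of fructose 2,6-bisphosphate, which activates phosphofructokinase. Pfkfb1 had normalized counts of 165, 249, 336, 56.6 and 60.9 in EDL replicates 1 to 5, 39.6, 44.3, 25.6, 44.3 and 123 in psoas replicates 1 to 5 and 108, 77.8 and 139 in soleus replicates 1 to 3. EDL was itself split, with replicates 1 to 3 above every other library and replicates 4 and 5 within the psoas range. Pfkfb1 passed the wider rule in psoas (log2 fold change -1.66, adjusted p = 0.0375). Within T6 its difference had the opposite sign, a log2 difference of 0.34, against -2.48 in T4 and -3.65 in T5. Pfkfb3 had 459 to 1032 in EDL, 313 to 938 in psoas and 394 to 621 in soleus and did not pass in any comparison.

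Aldolase cleaves the 6-carbon sugar, and Aldoa (ENSMUSG00000030695, chromosome 7, 126795234 to 126800751) is the form of muscle. Its normalized counts were 124556, 176536, 252405, 107558 and 163365 in EDL replicates 1 to 5, 14004, 23891, 28163, 48274 and 52586 in psoas replicates 1 to 5 and 22206, 21322 and 29112 in soleus replicates 1 to 3. The highest psoas library, replicate 5, had less than the lowest EDL library, replicate 4, and the soleus libraries were all within the psoas range. Aldoa was 4.96-fold lower in psoas (log2 fold change -2.31, SE 0.37, adjusted p = 0.00203), a call that held in all 13 fits without 1 library. In soleus it was 6.81-fold lower (log2 fold change -2.77, SE 0.47, adjusted p = 0.00660), a call lost without EDL replicate 2, EDL replicate 3, EDL replicate 5, soleus replicate 1, soleus replicate 2 or soleus replicate 3 (adjusted p up to 0.0440). Aldoc, the aldolase of brain, was near the limit of detection, with normalized counts of 8.52, 3.19, 0, 8.71 and 5.41 in EDL replicates 1 to 5, 30.3, 13.9, 8.24, 9.55 and 12.4 in psoas replicates 1 to 5 and 5.38, 2.14 and 10.3 in soleus replicates 1 to 3. The 0 in EDL replicate 3 allows up to 3 counts in that library. Psoas replicate 1 stood highest, and no comparison passed (psoas against EDL, log2 fold change 1.44, adjusted p = 0.105). Tpi1, triose phosphate isomerase, which interconverts the 2 products of aldolase, had 21513, 29685, 35001, 25478 and 32632 in EDL replicates 1 to 5, 4722, 10225, 11476, 18140.1 and 13767 in psoas replicates 1 to 5 and 10695, 8699 and 11836 in soleus replicates 1 to 3. Every psoas and soleus library lay below every EDL library. Tpi1 passed the wider rule in psoas (log2 fold change -1.31, SE 0.30, adjusted p = 0.0103) and in soleus (log2 fold change -1.47, adjusted p = 0.0387), and it was called in psoas with the replicate block (adjusted p = 0.00735). Annotated copies named after Aldoa (4, of which 2 are in the tables) may share reads with it.

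Gapdh (ENSMUSG00000057666, chromosome 6, 125161715 to 125166467) encodes the dehydrogenase that begins the energy-yielding steps. Normalized counts were 58079.9, 64493, 88742, 34012 and 37260.4 in EDL replicates 1 to 5, 12960.2, 17902, 19468, 24621 and 25877 in psoas replicates 1 to 5 and 23716, 16196 and 8941 in soleus replicates 1 to 3. All psoas and soleus libraries were below all EDL libraries. It was 2.81-fold lower in psoas (log2 fold change -1.49, SE 0.34, adjusted p = 0.00957), a call lost in 11 of 13 fits, all but those without EDL replicate 4 or soleus replicate 3 (adjusted p up to 0.0275) and with the replicate block (adjusted p = 0.0165). In soleus Gapdh passed the wider rule (log2 fold change -1.79, adjusted p = 0.0264). Gapdh is often used as a reference transcript in muscle. Pgk1, phosphoglycerate kinase, which makes the first ATP of the pathway, had 11297, 16456, 20191, 12388 and 17604 in EDL replicates 1 to 5, 2066, 5408, 6339, 9470.4 and 7907 in psoas replicates 1 to 5 and 6697, 6466 and 7479 in soleus replicates 1 to 3. All psoas and soleus libraries lay below all EDL libraries here too. Pgk1 passed the wider rule in psoas (log2 fold change -1.33, SE 0.33, adjusted p = 0.0140) and the call with the replicate block (adjusted p = 0.00856), and it did not pass in soleus (log2 fold change -1.18, adjusted p = 0.129). Annotated pseudogenes named after Gapdh (2) and Pgk1 (3) may share reads with them.

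Phosphoglycerate mutase has a muscle form, Pgam2 (ENSMUSG00000020475, chromosome 11, 5801640 to 5803733), and a form of other tissues, Pgam1, and the 2 had opposite signs in psoas. Normalized counts of Pgam2 were 8739, 8247, 9532, 9328 and 17492 in EDL replicates 1 to 5, 1183, 1623, 1869, 3251 and 3129.9 in psoas replicates 1 to 5 and 2904, 3047 and 2543 in soleus replicates 1 to 3. EDL replicate 5 stood far above the other EDL libraries, and even the lowest EDL library had more than any psoas or soleus library. Pgam2 was 4.83-fold lower in psoas (log2 fold change -2.27, SE 0.31, adjusted p = 0.00104), a call that held in all 13 fits without 1 library, and it passed the wider rule in soleus (log2 fold change -1.91, SE 0.37, adjusted p = 0.0114). For Pgam1 the normalized counts were 49.4, 68.9, 51.8, 140.5 and 92.0 in EDL replicates 1 to 5, 94.6, 171, 91.6, 236 and 453 in psoas replicates 1 to 5 and 101, 196 and 191 in soleus replicates 1 to 3. Psoas replicate 5 was highest, and EDL replicates 4 and 5 overlapped the psoas range. Pgam1 passed the wider rule in psoas with higher values (log2 fold change 1.38, SE 0.44, adjusted p = 0.0414) and the call with the replicate block (adjusted p = 0.00776), and it did not pass in soleus (log2 fold change 1.02, adjusted p = 0.347).

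Enolase shows the same pair of forms. Eno3 (ENSMUSG00000060600, chromosome 11, 70657202 to 70662513), the muscle enolase, had normalized counts of 41784, 70268, 83922, 45643 and 60567 in EDL replicates 1 to 5, 3326, 11786, 11537, 26921 and 21710.5 in psoas replicates 1 to 5 and 5303, 5336 and 9577 in soleus replicates 1 to 3. Psoas replicate 1 was the lowest library of all, and the highest psoas library, replicate 4, remained below the lowest EDL library. It was 4.03-fold lower in psoas (log2 fold change -2.01, SE 0.45, adjusted p = 0.00907) and 8.97-fold lower in soleus (log2 fold change -3.16, SE 0.58, adjusted p = 0.00833). The psoas call was lost in 10 of 13 fits, all but those without psoas replicate 1, psoas replicate 4 or soleus replicate 3 (adjusted p up to 0.0257), and the soleus call in 9 of 13 fits, all but those without EDL replicate 4, psoas replicate 1, psoas replicate 4 or psoas replicate 5 (adjusted p up to 0.0544). Eno1, the enolase of most tissues, had 1262 to 2539 in EDL, 1190.2 to 3969 in psoas and 1879.6 to 2467 in soleus and did not pass in any comparison (psoas against EDL, log2 fold change 0.51, adjusted p = 0.238). Pkm (ENSMUSG00000032294, chromosome 9, 59656368 to 59679375) encodes the pyruvate kinase of muscle, the last step of glycolysis. Its normalized counts were 11267, 16584, 15017, 11377 and 18089 in EDL replicates 1 to 5, 4193, 4912, 5307, 8947 and 8748 in psoas replicates 1 to 5 and 4009, 5868 and 6479 in soleus replicates 1 to 3. All EDL libraries lay above all others. Pkm was 2.26-fold lower in psoas (log2 fold change -1.18, SE 0.27, adjusted p = 0.00959), a call lost in 10 of 13 fits, all but those without EDL replicate 4, psoas replicate 4 or psoas replicate 5 (adjusted p up to 0.0281), and it passed the wider rule in soleus (log2 fold change -1.40, adjusted p = 0.0259).

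Lactate dehydrogenase links pyruvate to lactate. Ldha, the form of fast muscle, had normalized counts of 5393, 7688, 8507, 9757 and 11803 in EDL replicates 1 to 5, 1240.5, 3141, 2273, 6164 and 6019 in psoas replicates 1 to 5 and 2515, 2782 and 3611 in soleus replicates 1 to 3. Psoas replicates 4 and 5 overlapped the lowest EDL library, replicate 1, while the soleus libraries did not. Ldha passed the wider rule in psoas (log2 fold change -1.20, SE 0.38, adjusted p = 0.0400) and the call with the replicate block (adjusted p = 0.00596), and it did not pass in soleus (log2 fold change -1.53, SE 0.46, adjusted p = 0.0869). Ldhb, the form of heart and slow muscle, had 866, 1032, 1117, 182 and 734 in EDL replicates 1 to 5, 723, 484, 648, 695 and 1909.8 in psoas replicates 1 to 5 and 2089, 2502 and 3057 in soleus replicates 1 to 3. All 3 soleus libraries lay above all EDL and psoas libraries, EDL replicate 4 was far below the rest of its muscle, and psoas replicate 5 far above. Even so the soleus difference did not pass in edgeR's test against EDL (log2 fold change 1.70, SE 0.49, adjusted p = 0.0735) or against psoas (log2 fold change 1.52, SE 0.49, adjusted p = 0.206). Psoas against EDL was 0.17 on the log2 scale (adjusted p = 0.812) and turned to -0.08 without EDL replicate 4 and to -0.31 without psoas replicate 5.

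Slc16a3 (ENSMUSG00000025161, chromosome 11, 120948480 to 120960868) encodes MCT4, which carries lactate out of glycolytic fibres. Normalized counts were 3339, 3043, 2407, 2025 and 2129 in EDL replicates 1 to 5, 120.2, 417, 269, 642 and 511 in psoas replicates 1 to 5 and 240.4, 169 and 217 in soleus replicates 1 to 3. The lowest EDL library, replicate 4, had more than the highest psoas library, also replicate 4, and the soleus libraries lay within the lower part of the psoas range. Slc16a3 was 6.63-fold lower in psoas (log2 fold change -2.73, SE 0.36, adjusted p = 0.00101), a call that held in all 13 fits without 1 library. In soleus it was 12.4-fold lower (log2 fold change -3.63, SE 0.46, adjusted p = 0.00124), lost without soleus replicate 1 or soleus replicate 2 (adjusted p up to 0.0143). It was the only member called in soleus under all the other alternatives run, scaling to the structural genes included. Slc16a1, encoding MCT1, which many cells use to take lactate up, had 1019 to 1732 in EDL, 757 to 1681 in psoas and 1246 to 1655 in soleus and did not pass in any comparison. Its log2 fold change was -0.33 in psoas and -0.05 in soleus, and both signs flipped under total count scaling, to 0.18 and 0.34.

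**Figure D3:**
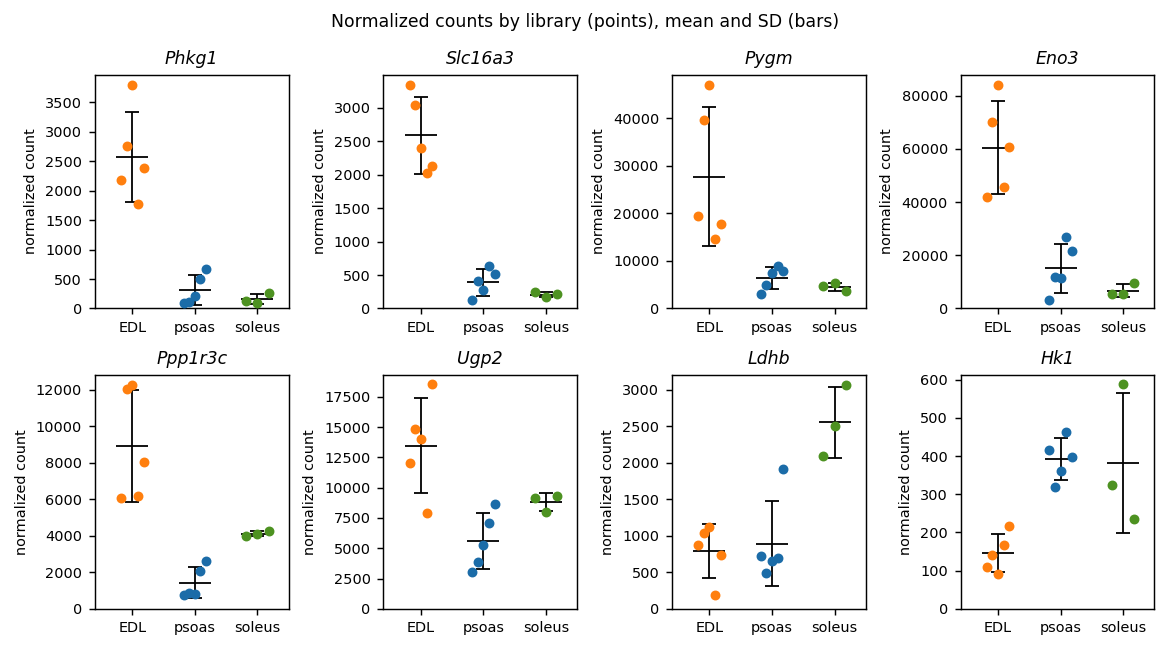
Normalized counts of 8 members in each library (points, by muscle), with the mean and SD of each muscle (black bars). Phkg1, Slc16a3, Pygm, Eno3 and Ppp1r3c lie higher in all 5 EDL libraries than in any psoas library, Ldhb is highest in the 3 soleus libraries, and Hk1 is lowest in EDL.

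Fbp2 (ENSMUSG00000021456, chromosome 13, 62836877 to 62858422), the muscle fructose bisphosphatase, runs the phosphofructokinase step backwards on the way from lactate to glycogen. In normalized counts it had 285, 436, 589, 247 and 211 in EDL replicates 1 to 5, 18.2, 58.2, 27.5, 66.9 and 85.4 in psoas replicates 1 to 5 and 35.2, 13.6 and 61.9 in soleus replicates 1 to 3. All EDL libraries exceeded all psoas and soleus libraries. Fbp2 was 6.95-fold lower in psoas (log2 fold change -2.80, SE 0.47, adjusted p = 0.00239), a call that held in all 13 fits without 1 library. In soleus it was 9.97-fold lower (log2 fold change -3.32, SE 0.60, adjusted p = 0.00809), a call lost in 9 of 13 fits, all but those without EDL replicate 4, psoas replicate 1, psoas replicate 3 or psoas replicate 5 (adjusted p up to 0.0497). Gpd1, the cytosolic glycerol 3-phosphate dehydrogenase that shuttles reducing power away from glycolysis, had 1020.2 to 2821 in EDL, 325 to 4052 in psoas and 939 to 1867 in soleus. Its psoas libraries ran from the lowest to the highest value of the 13, and it did not pass in any comparison with all libraries (psoas against EDL, log2 fold change -0.50, adjusted p = 0.604). Without psoas replicate 5, which stood far above the rest of its muscle, the log2 fold change was -1.64 (adjusted p = 0.0192), past the wider rule.

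Glycogen phosphorylase of muscle, encoded by Pygm (ENSMUSG00000032648, chromosome 19, 6384399 to 6398459), releases glucose 1-phosphate from glycogen. Normalized counts of Pygm were 19368, 39695, 47009.7, 14614 and 17868 in EDL replicates 1 to 5, 3034, 4984, 7359, 8846 and 7966 in psoas replicates 1 to 5 and 4791, 5253 and 3642 in soleus replicates 1 to 3. Even EDL replicate 4, the lowest of its muscle, had more than any psoas or soleus library. Pygm was 4.33-fold lower in psoas (log2 fold change -2.11, SE 0.38, adjusted p = 0.00346), a call lost without psoas replicate 2 (adjusted p = 0.0107). In soleus it was 6.08-fold lower (log2 fold change -2.60, SE 0.47, adjusted p = 0.00834), lost in 11 of 13 fits, all but those without EDL replicate 4 or psoas replicate 1 (adjusted p up to 0.0487). Pygl, the liver form, had 156, 269.9, 191, 708 and 312 in EDL replicates 1 to 5, 336, 757, 534, 367 and 1757 in psoas replicates 1 to 5 and 1439, 514 and 1267 in soleus replicates 1 to 3. It was highest in psoas replicate 5 and in soleus replicates 1 and 3, and the groups overlapped. Neither psoas (log2 fold change 1.20, SE 0.50, adjusted p = 0.108) nor soleus (log2 fold change 1.72, SE 0.56, adjusted p = 0.120) passed against EDL. Pygb, the brain form, had 287 to 648 in EDL, 471 to 615 in psoas and 588 to 1041 in soleus and did not pass in any comparison (soleus against EDL, log2 fold change 0.86, adjusted p = 0.0687).

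Phosphorylase kinase couples calcium and adrenaline to glycogen breakdown, and 3 of its subunits are members: the regulatory Phka1 (ENSMUSG00000034055, chromosome X, 102513975 to 102644246) and Phkb (ENSMUSG00000036879, chromosome 8, 85840959 to 86061376) and the catalytic Phkg1 (ENSMUSG00000025537, chromosome 5, 129863421 to 129898549). Phkg1 had normalized counts of 2174, 2752, 3785, 1774 and 2376 in EDL replicates 1 to 5, 90.8, 114, 218, 492 and 675 in psoas replicates 1 to 5 and 135, 97.8 and 259.6 in soleus replicates 1 to 3. The 5 psoas libraries differed widely among themselves, with replicates 1 and 2 lowest and replicates 4 and 5 highest, and all lay far below EDL. Phkg1 was 8.14-fold lower in psoas (log2 fold change -3.03, SE 0.52, adjusted p = 0.00264), the largest change among the members, and the call held in all 13 fits without 1 library. In soleus it was 15.8-fold lower (log2 fold change -3.98, SE 0.67, adjusted p = 0.00660), lost without EDL replicate 1, EDL replicate 2, EDL replicate 3, EDL replicate 5, soleus replicate 1, soleus replicate 2 or soleus replicate 3 (adjusted p up to 0.0441). Phka1 had 2227, 3791, 3554, 1336 and 1976 in EDL replicates 1 to 5, 315, 393, 453, 797 and 1135 in psoas replicates 1 to 5 and 439, 517 and 550.2 in soleus replicates 1 to 3. All EDL libraries were above the rest. It was 4.19-fold lower in psoas (log2 fold change -2.07, SE 0.37, adjusted p = 0.00345), a call lost without EDL replicate 3 (adjusted p = 0.0105), and it passed the wider rule in soleus (log2 fold change -2.36, SE 0.46, adjusted p = 0.0114). Phkb, the subunit also used outside muscle, had 2897, 5075, 7099, 2907 and 4064 in EDL replicates 1 to 5, 955, 1194, 1995, 2227 and 2223 in psoas replicates 1 to 5 and 1603, 1909.6 and 1544 in soleus replicates 1 to 3. All psoas and soleus libraries lay below all EDL libraries, and its fold in psoas was the smallest of the 3. Phkb was 2.58-fold lower in psoas (log2 fold change -1.37, SE 0.30, adjusted p = 0.00910), a call lost in 11 of 13 fits, all but those without EDL replicate 1 or EDL replicate 4 (adjusted p up to 0.0258), and it did not pass in soleus (log2 fold change -1.39, adjusted p = 0.0511). Within T6 the log2 differences in psoas were -1.82 for Phkg1, -0.76 for Phka1 and -0.62 for Phkb, against -4.61, -3.30 and -2.12 in T4. Phkg1 overlaps the gene Sumf2 on the opposite strand, whose mean normalized count of 195 was small beside the EDL values of Phkg1 but not beside those of psoas and soleus.

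Pgm1 (ENSMUSG00000025791, chromosome 4, 99929414 to 99987294), phosphoglucomutase, which joins glycogen to glycolysis in both directions, had normalized counts of 4144, 6754, 11329.9, 5590.4 and 7034 in EDL replicates 1 to 5, 831, 1372, 2173, 3346 and 2976 in psoas replicates 1 to 5 and 1988, 1695 and 2295 in soleus replicates 1 to 3. No psoas or soleus library reached the lowest EDL library. Pgm1 was 3.27-fold lower in psoas (log2 fold change -1.71, SE 0.36, adjusted p = 0.00719), a call lost without EDL replicate 2, EDL replicate 3, EDL replicate 5, psoas replicate 1, psoas replicate 2, psoas replicate 3 or soleus replicate 1 (adjusted p up to 0.0218), and it passed the wider rule in soleus (log2 fold change -1.81, adjusted p = 0.0345). Gbe1, the branching enzyme, had 2785, 2818, 3245, 1796 and 4612 in EDL replicates 1 to 5, 709, 709, 1513, 1189 and 2013 in psoas replicates 1 to 5 and 2156, 2107 and 2036 in soleus replicates 1 to 3. Psoas replicate 5 overlapped EDL replicate 4. Gbe1 passed the wider rule in psoas (log2 fold change -1.32, SE 0.31, adjusted p = 0.0110) and the call with the replicate block (adjusted p = 0.00518), and it did not pass in soleus (log2 fold change -0.53, adjusted p = 0.534). Ugp2, which makes the UDP-glucose that glycogen synthase adds, had 12018, 14829, 14057, 7941 and 18555 in EDL replicates 1 to 5, 3078, 3884, 5281, 7046 and 8688 in psoas replicates 1 to 5 and 9147, 8008 and 9331 in soleus replicates 1 to 3. Here too psoas replicate 5 overlapped EDL replicate 4. It passed the wider rule in psoas (log2 fold change -1.27, SE 0.30, adjusted p = 0.0109) and not in soleus (log2 fold change -0.61, adjusted p = 0.445). Gys1, the glycogen synthase of muscle, had 1158 to 2657 in EDL, 709 to 1523 in psoas and 1068 to 2072 in soleus, Gyg, glycogenin, which primes the particle, had 2587 to 5433 in EDL, 1804 to 3179 in psoas and 2878 to 3746 in soleus, and Pgm2, a further phosphoglucomutase, had 49.8 to 146 in EDL, 56.8 to 144 in psoas and 89.4 to 146 in soleus. None of these 3 passed in any comparison. In psoas the log2 fold changes were -0.67 for Gys1 (adjusted p = 0.0953) and -0.57 for Gyg (adjusted p = 0.103), and in soleus -0.32 and -0.19, signs that flipped under total count scaling to 0.07 and 0.20.

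Ppp1r3a and Ppp1r3c hold protein phosphatase 1 at glycogen, where it activates the synthase and stops phosphorylase. Ppp1r3a (ENSMUSG00000042717, chromosome 6, 14713977 to 14755274), the striated muscle subunit, had normalized counts of 8109, 11743, 18031, 4845 and 5045 in EDL replicates 1 to 5, 1441, 929, 1952, 2499.6 and 2415 in psoas replicates 1 to 5 and 2259, 1932 and 1766 in soleus replicates 1 to 3. EDL replicates 2 and 3 were highest, and all psoas and soleus libraries lay below all EDL libraries. It was 5.20-fold lower in psoas (log2 fold change -2.38, SE 0.38, adjusted p = 0.00203) and passed the wider rule in soleus (log2 fold change -2.27, SE 0.47, adjusted p = 0.0160). Ppp1r3c (ENSMUSG00000067279, chromosome 19, 36731731 to 36736653) had 6058, 12062, 12248, 6181 and 8056 in EDL replicates 1 to 5, 767, 891, 803, 2059 and 2633 in psoas replicates 1 to 5 and 4009, 4098 and 4266 in soleus replicates 1 to 3. The 3 muscles formed separate ranges, psoas lowest, soleus between and EDL highest. It was 6.27-fold lower in psoas (log2 fold change -2.65, SE 0.38, adjusted p = 0.00122), and it did not pass in soleus against EDL (log2 fold change -1.11, SE 0.43, adjusted p = 0.212). Both psoas calls held in all 13 fits without 1 library.

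Many steps have a form abundant in muscle and forms of other tissues, and the share of the muscle form was described per length (FPKM), with no test. The share of Slc16a3 in Slc16a3 and Slc16a1 was 54.6 to 64.1% in EDL, 11.7 to 29.4% in psoas and 10.1 to 12.3% in soleus, so that the lactate transporter with more transcript was MCT4 in every EDL library and MCT1 in every psoas and soleus library. Ldha made up 74.7 to 96.2% in EDL, 44.9 to 80.8% in psoas and 34.5 to 36.4% in soleus of Ldha and Ldhb, with the soleus libraries below all others. The share of Pygm in the 3 phosphorylases was 95.0 to 99.4% in EDL, 84.2 to 94.8% in psoas and 75.0 to 89.2% in soleus, and that of Hk2 in Hk1 and Hk2 95.1 to 98.7% in EDL, 78.2 to 89.6% in psoas and 87.4 to 92.5% in soleus. Slc2a4 took 94.6 to 99.1% in EDL, 75.7 to 90.0% in psoas and 89.5 to 93.4% in soleus of Slc2a4 and Slc2a1. Eno3 took 98.2 to 99.5% in EDL, 89.6 to 95.9% in psoas and 88.2 to 92.3% in soleus of Eno3 and Eno1, Pgam2 99.4 to 99.8% in EDL, 94.2 to 98.0% in psoas and 96.9 to 98.6% in soleus of Pgam2 and Pgam1, and Pfkm 98.8 to 99.7% in EDL, 94.6 to 98.6% in psoas and 95.9 to 96.5% in soleus of the 3 phosphofructokinases. For these last 3 families and for Slc16a3, Pygm, Hk2 and Slc2a4, the lowest EDL library was above the highest psoas and soleus library. Aldoa stayed at 99.8% or more of Aldoa and Aldoc in every library.

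**Figure D4:**
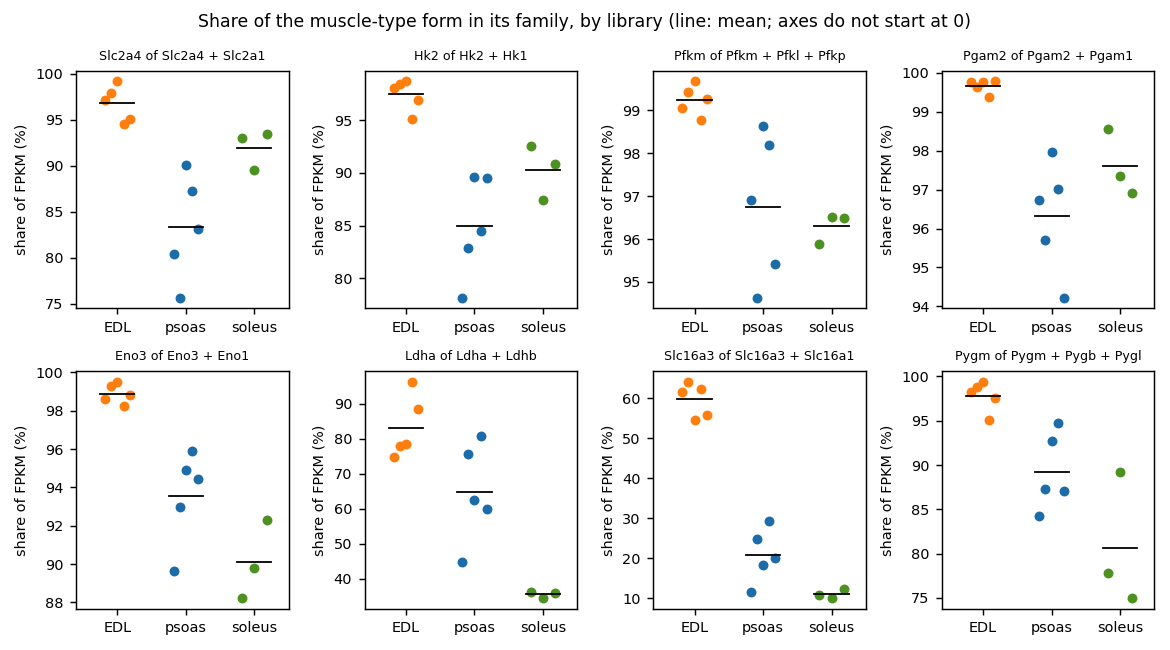
Share of the muscle form in the summed FPKM of its family, in percent, for 8 families in each library (points) with the mean of each muscle (line). The axes do not start at 0, and the largest separations are those of Slc16a3 (54.6 to 64.1% in EDL, 11.7 to 29.4% in psoas) and of Ldha, lowest in soleus at 34.5 to 36.4%.

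Between soleus and psoas, 0 of 40 members were called by edgeR's test or by DESeq2, against 0.0762% of all genes (0.0703% higher, 0.00586% lower), and 0 passed the wider rule in edgeR, against 0.633% (7 members had an unadjusted p under 0.05). DESeq2 put 1 member, Ppp1r3c, at an adjusted p under 0.05 (adjusted p = 0.0159). The median log2 fold change was -0.01, with 20 members on each side of 0. Ppp1r3c had the highest (log2 fold change 1.54, SE 0.41, adjusted p = 0.127) and Aldoc the lowest value (log2 fold change -1.44, SE 0.72, adjusted p = 0.429). Ppp1r3c, Ldhb, Slc2a4 and Gbe1 had all 3 soleus libraries above all 5 psoas libraries, 4 members against 4.97% of all genes, and 0 members had them all below, against 5.19% (10.2% in either direction). Log2 fold changes were 0.70 for Slc2a4 (SE 0.32), 0.78 for Gbe1 (SE 0.34), -1.15 for Eno3 (SE 0.52), -0.90 for Slc16a3 (SE 0.41) and -0.96 for Phkg1 (SE 0.58). With SEs of this size a difference between these muscles was not detectable here for most members, and that does not show that the muscles were alike.

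Other genes of the pathway were counted from 3 further lists. Of 34 further genes of glycolysis and glycogen metabolism, 28 were tested, and 5 were lower and 0 higher in psoas than in EDL, against 2.5% and 2.43% of all genes. The 4 described here were Got1, the cytosolic aspartate aminotransferase (log2 fold change -1.81, adjusted p = 0.00595), Pfkfb4, another regulator of fructose 2,6-bisphosphate (log2 fold change -1.70, adjusted p = 0.00568), Tigar, which lowers it (log2 fold change -1.54, adjusted p = 0.00676), and Bsg, the chaperone that brings MCT1 and MCT4 to the membrane (log2 fold change -1.42, adjusted p = 0.00355). In soleus 1 of these 28 was higher than in EDL, Gys2, the liver glycogen synthase (log2 fold change 3.27, adjusted p = 0.00872), and 0 were lower. Of all genes 0.533% were higher and 0.445% lower there. Bsg serves both Slc16a3, which was also called lower in psoas, and Slc16a1, which did not pass (log2 fold change -0.33, adjusted p = 0.315). Whether these levels are linked was not tested. A list of 14 genes held the mitochondrial pyruvate carrier and the subunits and regulators of the pyruvate dehydrogenase complex. Of these, Mpc1, a subunit of the carrier (log2 fold change -1.39, adjusted p = 0.00386), and Pdp1, a phosphatase that activates pyruvate dehydrogenase (log2 fold change -1.13, adjusted p = 0.00820), were lower in psoas. Pdp2, the other phosphatase, was higher (log2 fold change 1.52, adjusted p = 0.00348). Of 17 genes of AMP-activated kinase and of the signals for glucose uptake, 1 was called in psoas, Tbc1d4, which restrains GLUT4 until insulin acts, and it was higher (log2 fold change 1.06, adjusted p = 0.00893). A count of 1 in 17 is near the 4.93% of all genes called in either direction. In soleus against EDL 1 gene of each of the last 2 lists passed the wider rule, Pdp1 (log2 fold change -1.39, adjusted p = 0.0180) and Tbc1d4 (log2 fold change 1.10, adjusted p = 0.0323). The wider rule held for 3.43% of all genes there, and a count of 1 in lists this small is close to that share. Medians of the log2 fold change in psoas were -0.51, -0.85 and 0.09 for the 3 lists in this order, beside -1.29 for the members.

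Some counts may hold reads of another gene. Genes on the opposite strand overlap Pfkp (Pitrm1, 699), Tpi1 (Spsb2, 217), Phkg1 (Sumf2, 195), Pfkm (Senp1, 188), Gapdh (Iffo1, 127), Gys1 (Ruvbl2, 125), Pgm1 (Itgb3bp, 73.1), Ugp2 (Gm12043, 68.8), Gpi1 (Gm26762, 60.4), Pfkfb1 (Apex2, 46.6), Gpd1 (Gm16537, 16.4) and Aldoa (Fam57b, 9.80), each given with its neighbour and the mean normalized count of that neighbour over the 13 libraries. The mean of the neighbour exceeds Pfkp in every library, and it exceeds Pfkfb1 and, in psoas and soleus, Phkg1 in at least 1 library. The values of these members are therefore uncertain, as is the share of Pfkm among the phosphofructokinases, which uses Pfkp. Copies named after Pgam1 (2), Ldha (2) and Eno1 (1) are annotated as well and may share reads with them.

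Summed markers of fibre type and of other cells are given beside these results. The summed normalized counts of the adult fast myosins Myh4, Myh1 and Myh2 were 597072 to 1551934 in EDL, 184221 to 503161 in psoas and 90713 to 134357 in soleus, with no overlap between EDL and either other muscle. The 3 were not lower alike. Against EDL, their log2 fold changes ran from -4.18 to -0.46 in psoas (1 called lower) and from -5.44 to -1.49 in soleus (2 called lower). Those of the slow markers Myh7, Myl2 and Tnnt1 were 3143 to 27112 in EDL, 1968 to 30659 in psoas and 204973 to 272024 in soleus, so the soleus libraries carried the slow fibre markers of their label. Sums over 4 Schwann cell markers were 452 to 1238 in EDL, 2175 to 18444 in psoas and 1179 to 4006 in soleus, over 4 mesothelial markers 25.7 to 95.4 in EDL, 173 to 908 in psoas and 27.9 to 92.8 in soleus (Bnc1 at 0 in every EDL library), and over 6 adipocyte markers 9135 to 28252 in EDL, 14987 to 41456 in psoas and 58872 to 84774 in soleus. Sums over 5 erythroid markers were 97.6 to 577 in EDL, 49.5 to 6636 in psoas and 216 to 1334 in soleus, over 6 macrophage markers 2483 to 7066 in EDL, 2832 to 11321 in psoas and 3395 to 4685 in soleus, over 5 fibroblast markers 32972 to 82658 in EDL, 42653 to 118269 in psoas and 54584 to 81208 in soleus, over 5 endothelial markers 1331 to 3764 in EDL, 1939 to 3039.9 in psoas and 2815 to 4294 in soleus, and over 4 markers of regenerating fibres 35118 to 67503 in EDL, 65295 to 143663 in psoas and 59146 to 179438 in soleus. The last 4 did not move together in soleus against EDL, where the embryonic myosin Myh3 was higher (log2 fold change 2.29, adjusted p = 0.0199) and the perinatal myosin Myh8 lower (log2 fold change -1.85, adjusted p = 0.00446). In psoas against EDL, 4 mesothelial, 2 Schwann and 1 endothelial marker were called higher, against 2.43% of all genes. Other lists went both ways there, with log2 fold changes of -0.39 to 2.35 (adipocyte), -0.92 to 0.80 (fibroblast), -0.11 to 1.42 (endothelial) and -1.47 to 0.38 (slow). The 10 structural genes, among them Ttn, Neb, Des, Actn2 and Myom1, chosen after the data were seen, summed to 718931 to 1760894 in EDL, 634109 to 1362063 in psoas and 560802 to 904768 in soleus, with a median log2 fold change of -0.41 in psoas and -0.51 in soleus against EDL. Of these 10, Myom1 passed the wider rule in psoas (log2 fold change -0.86, adjusted p = 0.0406) and no other passed in either comparison. The part of these cells and fibre types in the differences of the members was not tested.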

How the data were processed

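RNA of *mdm* muscles was sequenced as stranded total RNA. The authors trimmed low-quality libraries with Trimmomatic 0.32, aligned reads to GRCm38.p4 with TopHat2 2.1.1 and counted them per gene with GenomicAlignments, and they deposited these raw counts. The overlap mode and strand setting are not given in the sources used here, so reads of genes on opposite strands may be shared. The authors also deposited a normalized signal, the count divided by the size factor of the library (0.502 to 2.42), and these normalized counts are printed. Genes with at least 10 normalized counts in at least 3 libraries (17069 of 17924) were fitted in 1 edgeR 4.0.16 quasi-likelihood model with TMM, all 13 libraries and the muscle as factor, in R 4.3.3. DESeq2 1.42.0, limma 3.58.1 (voom), other scalings, filters, blocks and sample sets were alternatives. The study fitted genotype within muscle with the sequencing run as a term, and the labels used here do not name the run. SEs are the log2 fold change over the square root of F. Differences within a label code are of log2 CPM with a prior count of 2. FPKM used exon lengths of GENCODE release 21, which placed all 40 members (GRCm38).

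Values in every library are given for members called in any comparison and for the 10 others with the largest absolute log2 fold change, and the other members by range. Of the other lists, called genes are named, except that some genes are not reported here. The rule for the members uses no measured value, but the members and lists were chosen with earlier results of these data known. The study describes biological replicates taken from fewer mice than muscles, the labels do not tie muscles to animals, and p-values measure the spread between these samples. No 2 libraries of a muscle agreed within sampling noise (chi-square over degrees of freedom at least 56.5). EDL and psoas libraries with the same replicate number deviated together over all genes (correlations 0.407, 0.370, 0.316, 0.289 and 0.371 for replicates 1 to 5). The fit with the replicate number as a block, an alternative to the reported fit, takes up this shared deviation, but it is not known to pair muscles of 1 animal. Replicate 1 joins an EDL library of 38 days and code T1 with a psoas library of 29 days and code T3. These came from different mice and yet had the highest of the correlations, so the correlations do not show shared animals. Depth limits precision chiefly for Aldoc, with at most 30.3 normalized counts in a library. The scripts were tested on simulated data. Tables and figures were made with Python 3.11.15, pandas 2.3.3, numpy 2.4.6 and matplotlib 3.10.9.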

Additional observations from a re-analysis of the deposited data

Results flagged for a closer look

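Among the 80 sets of 5 libraries screened (each member in EDL and in psoas), 6 held a library whose gap to the others exceeded Dixon's 95% critical value of 0.71, and chance alone gives about 1 in 20. Psoas replicate 5 was the high library for 3 members. For Gpd1 it had 4052 normalized counts, against 325 to 1086 in the other 4 psoas libraries. For Ldhb it had 1909.8 normalized counts, against 484 to 723 in the other 4 psoas libraries. For Pfkfb1 it had 123 normalized counts, against 25.6 to 44.3 in the other 4 psoas libraries. Aldoc was highest in psoas replicate 1 (30.3 normalized counts, against 8.24 to 13.9 in the other 4 psoas libraries). Pgam2 was highest in EDL replicate 5 (17492 normalized counts, against 8247 to 9532 in the other 4 EDL libraries), and Pygl in EDL replicate 4 (708 normalized counts, against 156 to 312 in the other 4 EDL libraries). Of these members, Pgam2 was the only one called in a comparison, and without EDL replicate 5 its log2 fold change in psoas was -2.02. Their causes were not tested.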

How the results depend on the processing

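The direction of every member called in psoas or soleus against EDL was kept under every alternative run, and the limits lay in the counts. In psoas against EDL, 18 members were called, against 7 under scaling to 10 structural fibre genes (chosen after seeing the data), 11 with only the 2 muscles compared and 10 with only label codes of more than 1 library, and 8 to 20 when 1 library was left out. DESeq2 called 2 members higher and 24 lower in that comparison. The 27 members at an adjusted p under 0.05 became 17 under the structural scaling and 24 to 28 with 1 library left out. In soleus against EDL, the 6 called members became 1 under the structural scaling, 18 in DESeq2 and 0 to 8 with 1 library left out, and the 15 of the wider rule became 9 under the structural scaling and 5 to 19. In soleus against psoas, the count of 0 at an adjusted p under 0.05 became 1 in DESeq2 and 0 to 1 with 1 library left out, while 0 were called in every such fit. Total count scaling moved the median of all genes to 0.54, 0.33 and -0.18 in the 3 comparisons and the structural scaling to 0.19, 0.30 and 0.11. Total count scaling made the calls in psoas 4 higher and 10 lower (28.6% higher, against 5.56%) and in soleus 2 and 7 (22.2% higher, against 0). The causes were not tested.

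In the comparisons with EDL, values that changed sign belonged to members not called in that comparison. Slc16a1 was 0.18 in psoas against EDL under total count scaling, and in soleus against EDL 0.34 under total count scaling, 0.31 under the structural scaling, 0.0310 when the label code was fitted as a block, 0.0194 with only label codes of more than 1 library, and -0.19 to 0.0313 with 1 library left out. Ldhb in psoas against EDL ran from -0.31 to 0.34 with 1 library left out. Aldoc in soleus against EDL was -0.00920 with DESeq2 size factors, -0.00418 with the deposited size factors, -0.00400 in DESeq2, -0.0811 in limma-voom and -0.47 to 0.44 with 1 library left out. In soleus against EDL, Gpd1 was 0.0832 under the structural scaling, Gys1 0.0714 under total count scaling and 0.0134 under the structural scaling, and Gyg 0.20 and 0.19.

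With the replicate number as a block, psoas against EDL had 22 called members (3 higher, 19 lower), soleus against EDL 5 and soleus against psoas 0. Hk2 and Gapdh lost the call in psoas, while Slc2a1, Tpi1, Pgk1, Pgam1, Ldha and Gbe1 gained it, and in soleus Aldoa (adjusted p = 0.0187) and Pygm (adjusted p = 0.0183) lost it and Phka1 gained it. In soleus against psoas, where 0 members were called, 12 members that were negative turned positive under the block, among them Phkg1 (to 0.16), Aldoa (to 0.14), Phka1 (to 0.34), Pgm1 (to 0.50) and Pkm (to 0.12). Soleus libraries share only a number with the others (correlations 0.115, 0.421 and -0.162 with EDL, 0.159, 0.141 and -0.302 with psoas), so the block does not stand for a pairing there either.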
